A study of Mus musculus with 6 samples.

Results

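Interferon-stimulated genes are the genes that cells switch on when they sense type I or type II interferon. Here 40 of them, listed by symbol, were followed in the mouse parotid gland, a salivary gland that consists mainly of enzyme-secreting acinar cells. All 40 symbols matched a row of the gene count tables, out of 52636 genes listed. RNA was sequenced from whole parotid tissue of FVB mice labelled as 28 days of age, in 2 groups of 3 libraries each. Mice labelled untreated (UT) formed one group, and mice labelled treated formed the other (irradiated, IR), which received a single radiation dose of 5 Gy. The groups follow the treatment label of each sample, because the protocol text attached to all 6 samples is the same and names the dose. The time between irradiation and collection, and whether a library came from 1 mouse or a pool, are not given in the sources used here. The p-values therefore measure the spread between these libraries, which may be partly technical.

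Interferons are secreted proteins that bind receptors on the cell surface. The receptors activate the kinases Jak1, Jak2 and Tyk2, which phosphorylate transcription factors. Type I interferon assembles a complex with Stat2 and Irf9 that binds the interferon-stimulated response element (ISRE), whereas interferon gamma acts on the gamma-activated site (GAS). The target genes encode RNA and DNA sensors, proteins that block viral replication, the ubiquitin-like protein Isg15 and its enzymes, GTPases that attack the vacuoles of intracellular pathogens, and the machinery that cuts and transports peptides for MHC class I. DNA damage is known as one of the signals that can start this programme, through sensing of self DNA in the cytosol.

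Short promoter windows are shown first, because the ISRE is what many of these genes share although the list was made by symbol and not by sequence. RefSeq promoters of the mouse build GRCm38.p6, from 250 bases before to 50 bases after a start site, were matched for 30 of the 40 members. The ISRE core was searched as GAAA, any 2 bases and GAAA again, and the GAS core as TTCNNNGAA, each on both strands. Each window is written 5′ to 3′ on the strand of its gene, with core matches in capitals, and adjacent or overlapping matches run together.
Isg15: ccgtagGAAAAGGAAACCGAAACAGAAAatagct
Ifit1: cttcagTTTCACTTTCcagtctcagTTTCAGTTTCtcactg
Oas1a: tctcggGAAATGGAAACTGAAAatct
Gbp2: ttttagTTTCACTTTCactgtc
Gbp3: acacagTTTCAGTTTCTATTTCccagat
Gbp7: gtgcagTTTCAGTTTCagttct
Irgm1: tttcaaGAAATAGAAACCGAAActgatt
Igtp: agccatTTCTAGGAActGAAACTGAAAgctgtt
Irgm2: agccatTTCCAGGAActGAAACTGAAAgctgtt
Irf1: cctgatTTCCCCGAAatgatg
Psmb8: ccgctgTTCCCAGAAgatgcc

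The Isg15 window is at chr4:156200869-156200902 on the minus strand and holds a run of overlapping ISRE cores. The Ifit1 window, at chr19:34640779-34640819 on the plus strand, holds a pair of separate ISRE cores. Oas1a has its window at chr5:120907526-120907551 on the minus strand. The guanylate-binding protein genes carry theirs on the plus strand, Gbp2 at chr3:142620598-142620619, Gbp3 at chr3:142559993-142560020 and Gbp7 at chr3:142530277-142530298. The Irgm1 window lies at chr11:48871429-48871456 on the minus strand. Igtp at chr11:58199505-58199537 and Irgm2 at chr11:58214896-58214928, both on the plus strand, hold a GAS core followed by an ISRE core. Their windows differ at 1 of 33 positions, T10C, counted from 1 at the 5′ end with the Igtp base given first. The windows of Irf1, at chr11:53769918-53769938, and of Psmb8, at chr17:34198092-34198112, both on the plus strand, show a GAS core and no ISRE core.

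An ISRE core was present in 17 of the 30 member promoters (56.67%), against 3.993% of the 27025 genes with a promoter in the same table. A GAS core was present in 10 of the 30 (33.33%), against 9.554% of those genes. Both cores were found in 6 members, which were Bst2, Gbp7, Ifitm3, Igtp, Irgm2 and Oas1a, and neither in 9. A match describes letters in a window of 300 bases and is not evidence of a bound factor.

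The members covered a wide range of levels in the untreated gland. Levels of different genes are compared as CPM per kilobase of annotated exon, where CPM is the read count per 1000000 counts of the library after correction for composition. Ifi27, a small membrane protein of the antiviral group, was highest at 47.2 ± 4.06 CPM per kilobase (mean ± SD, n = 3), followed by Ifitm3, a membrane protein that blocks viral fusion, at 29.3 ± 0.638. The next in order was Bst2, known as tetherin for holding virus particles at the cell surface, at 5.23 ± 0.338. Ifi35 (4.28 ± 0.255) and Tap1 (3.94 ± 0.609) came after it and did not differ beyond their spread. Of the 40 members, 2 lay above 10 CPM per kilobase, 17 between 1 and 10, and 21 under 1. Oas3, an oligoadenylate synthetase, was lowest at 0.0272 ± 0.0154 CPM per kilobase. Its counts were 3, 3 and 1 in UT1 to UT3, against 1, 5 and 2 in IR1 to IR3.

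No interferon-stimulated gene of the list of 40 passed the test after irradiation, in either direction. Of the 40 members, 31 had enough counts to be tested, and 0 of the 31 were called higher and 0 lower at an adjusted p under 0.05 (edgeR quasi-likelihood test, Benjamini-Hochberg adjustment over all 12885 tested genes). Over all tested genes, 0.652% were called higher and 0.349% lower, and a count of 0 among 31 genes is close to that background. At an unadjusted p under 0.05, 0 members were higher and 1 lower, where the background was 7.51% and 7.46%. DESeq2 and limma-voom also called 0 members.

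The fold changes of the members were small and centred on 0. The median log2 fold change (irradiated over untreated) of the 31 tested members was -0.00, beside -0.01 for all tested genes, with 15 values above 0 and 16 below. The values ran from -0.56 for Ifi35 to 0.43 for Igtp. The summed level of all 40 members was 270, 279 and 291 CPM in UT1, UT2 and UT3 and 290, 271 and 264 CPM in IR1, IR2 and IR3. The groups overlapped, with means of 280 ± 10.5 and 275 ± 13.6 CPM (SD, n = 3 each). Abundant genes weigh most in such a sum. The mean log2 of CPM plus 0.5 over the 40 members gives each gene equal weight. Relative to the untreated mean, it was 0.01, -0.03 and 0.02 in UT1 to UT3 and 0.10, 0.09 and -0.15 in IR1 to IR3. IR1 and IR2 thus lay above all untreated libraries and IR3 below them. In the untreated libraries the SD of log2 CPM had a median of 0.169 over the tested members, close to the 0.187 over all tested genes.

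The intervals show what sizes of change remain possible. For 27 of the 31 tested members the 95% interval of the fold change lay below a 2-fold rise, and for 27 it lay above a 2-fold fall. The interval stayed within 2-fold both ways for 24 members, and within 1.5-fold both ways for 13. The 7 members whose interval reached past 2-fold on at least one side were Ifit1, Ifit3, Gbp3, Igtp, Dhx58, Xaf1 and Usp18, none of which had more than 52 counts in a library. These intervals are per gene and are not adjusted for the number of genes.

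**Figure D1:**
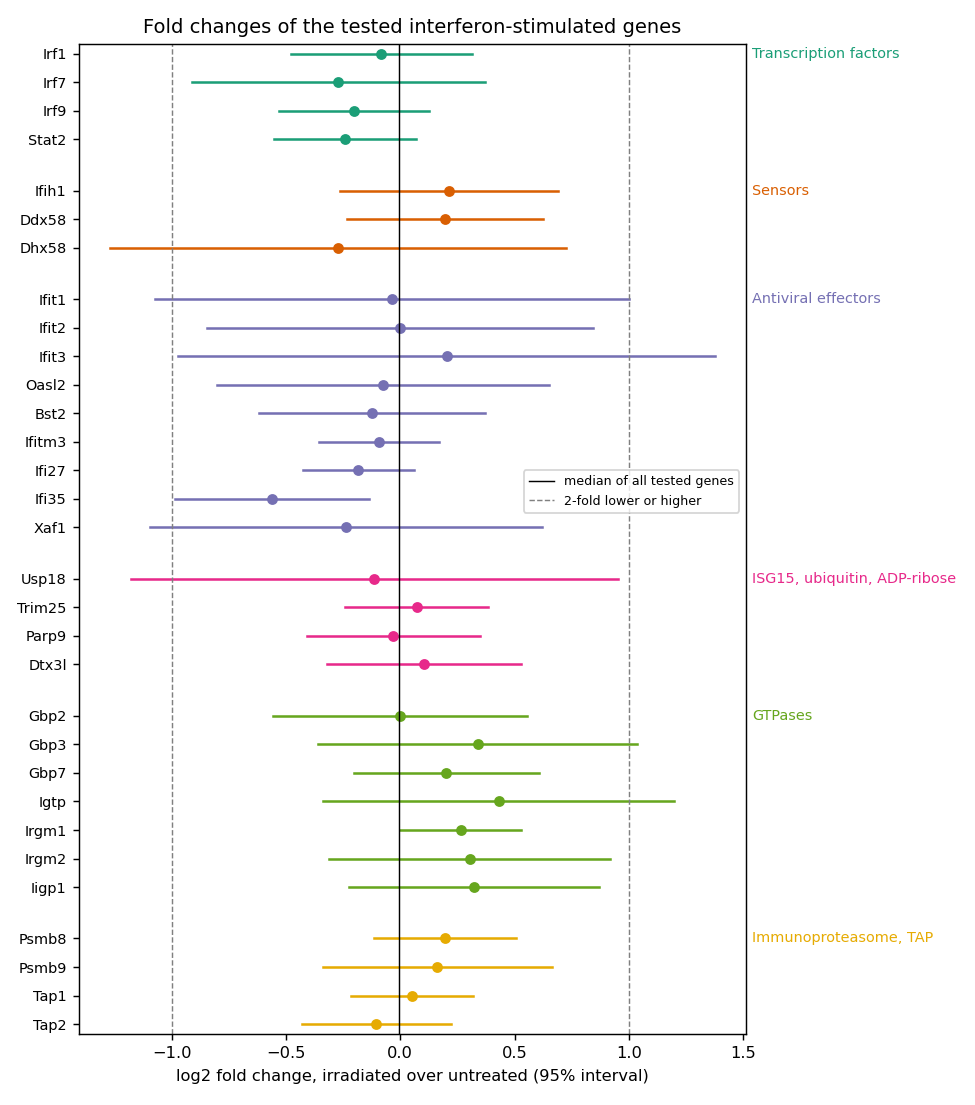
Log2 fold change of each of the 31 tested interferon-stimulated genes, irradiated over untreated, with its 95% interval from the edgeR fit, coloured by role. The solid line is the median of all tested genes and the dashed lines mark a 2-fold change. The intervals of all members but Ifi35 include 0, and no member has an adjusted p under 0.05.

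The 4 transcription factors that carry the interferon signal to the promoters all had fold changes below 0, with a median log2 of -0.22, and none passed the test. The median stayed below 0 in all 15 other settings, but was -0.11 without IR3 and -0.07 with library totals alone. The summed level of the 4 factors was 36.0 to 38.9 CPM in the untreated libraries, with 32.5 and 29.4 CPM in IR2 and IR3, while IR1 lay just under the lowest untreated value. Stat2, part of the ISRE-binding complex, measured 13.4, 16.3 and 13.0 CPM in UT1 to UT3 and 13.1, 11.7 and 11.1 CPM in IR1 to IR3. The groups overlapped only through IR1, and the log2 fold change was -0.24 (SE 0.15, edgeR adjusted p = 0.48). Irf9, the DNA-binding part of that complex, measured 11.0, 10.1 and 11.7 CPM in the untreated libraries and 9.46, 10.3 and 8.89 CPM in the irradiated ones. IR2 lay above UT2, and the log2 fold change was -0.20 (SE 0.16, edgeR adjusted p = 0.599).

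Irf7, which amplifies type I interferon production, was lower in level, at 3.70, 3.15 and 3.34 CPM in the untreated libraries and 2.93, 3.61 and 1.99 CPM in the irradiated ones. IR3 was the lowest library and IR2 lay within the untreated range, with a log2 fold change of -0.27 (SE 0.31, edgeR adjusted p = 0.733). Irf1, an early target of interferon gamma, measured 7.90, 9.44 and 9.21 CPM against 10.5, 6.86 and 7.43 CPM. The irradiated libraries held both the highest and the lowest value, and the log2 fold change was -0.08 (SE 0.19, edgeR adjusted p = 0.884).

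The sensors of foreign or misplaced nucleic acid did not pass the test either. Ifih1, the sensor Mda5 that binds long double-stranded RNA, measured 5.84, 5.33 and 4.0 CPM in the untreated libraries and 5.13, 6.86 and 5.70 CPM in the irradiated ones, and the groups overlapped. Its log2 fold change was 0.21 (SE 0.23, edgeR adjusted p = 0.716). For Ddx58, which encodes the RNA sensor Rig-I, the log2 fold change came to 0.20 (SE 0.21), and for Dhx58, the related protein Lgp2, to -0.27 (SE 0.48). Zbp1, a sensor of Z-form nucleic acid that can trigger cell death, was too low to be tested, with counts of 8, 9 and 9 in UT1 to UT3, against 18, 8 and 9 in IR1 to IR3. Without a count filter, the log2 fold change of Zbp1 was 0.53 (SE 0.59, edgeR adjusted p = 0.695). The median of the 3 tested sensors was 0.20, and 0.04 without IR2.

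Of the 16 antiviral effectors 9 could be tested, and the lowest p of all members was found here. Ifi35, an interferon-induced leucine zipper protein, measured 6.91, 7.78 and 7.47 CPM in UT1 to UT3 and 5.66, 4.57 and 4.66 CPM in IR1 to IR3. Every irradiated library lay below every untreated one, and the means were 7.39 ± 0.441 and 4.96 ± 0.604 CPM (SD, n = 3 each). The log2 fold change was -0.56 (SE 0.20, 95% interval -0.98 to -0.14), which missed the threshold over all genes with an edgeR adjusted p of 0.175. Ifi35 is at chromosome 11, 101448407 to 101458698, and 16.8% of its exon bases lie opposite the gene model Gm11626 on the other strand. Across 15 other settings its log2 fold change ranged from -0.68 to -0.42 and its adjusted p from 0.176 to 0.488.

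Ifi27, the most abundant member, measured 63.0, 69.6 and 74.9 CPM in the untreated libraries and 67.6, 52.4 and 62.5 CPM in the irradiated ones. The groups overlapped through IR1, and the log2 fold change was -0.18 (SE 0.12, edgeR adjusted p = 0.495). Ifit1, which binds viral RNA lacking the host cap, was near 1 CPM in every library, at 0.741, 1.4 and 0.80 against 0.932, 0.962 and 0.95 CPM. The irradiated values lay inside the untreated range, with a log2 fold change of -0.04 (SE 0.50, edgeR adjusted p = 0.985). Ifit2 and Ifit3, its neighbours on chromosome 19, had log2 fold changes of 0.00 (SE 0.40) and 0.20 (SE 0.56). Ifit3 was uneven among irradiated libraries, with counts of 33, 15 and 3 in IR1, IR2 and IR3.

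The other tested effectors were Ifitm3 (log2 fold change -0.09, SE 0.13), Bst2 (-0.12, SE 0.24), Oasl2 (-0.07, SE 0.35) and Xaf1 (-0.24, SE 0.41). The median of the 9 was -0.09, and it turned to 0.05 when libraries were scaled by their totals alone, a setting in which the median of all genes was 0.14. Without IR1 it was -0.31, with 0 of 10 tested effectors above 0. The effectors that are often used as markers of a strong interferon response were among the lowest members. Mx1, Mx2, Oas1a, Oas2, Oas3, Rsad2 and Ifi44 had between 1 and 22 counts per library and were not tested. Among these, Oas2 had counts of 8, 10 and 15 in UT1 to UT3, against 4, 4 and 3 in IR1 to IR3. With no count filter, the log2 fold change of Oas2 was -1.38 (SE 0.72, edgeR adjusted p = 0.481). In the same setting Ifi44 had 0.75, Rsad2 0.69, Oas1a 0.55 and Oas3 0.39, while Mx1 had -0.17 and Mx2 -0.70. The SEs of these other genes ran from 0.60 to 1.04 and their edgeR adjusted p from 0.695 to 0.971.

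Isg15, a ubiquitin-like protein modifier, was measured at the edge of detection. Its counts were 7, 5 and 10 in UT1 to UT3 and 7, 5 and 9 in IR1 to IR3, and it was not tested. The means were 0.560 ± 0.116 and 0.615 ± 0.156 CPM (SD, n = 3 each), and the groups overlapped. With no count filter, its log2 fold change was 0.10 (SE 0.68, edgeR adjusted p = 0.985), and with this SE a 2-fold change in either direction was not detectable at this depth. Isg15 is at chromosome 4, 156199424 to 156200818.

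The enzymes around Isg15 did not pass the test. Usp18, the protease that removes Isg15 and dampens receptor signalling, had a log2 fold change of -0.11 (SE 0.51). Trim25, a ubiquitin ligase that activates Rig-I, was measured more precisely at 0.07 (SE 0.15). Parp9 and Dtx3l, an ADP-ribosyltransferase and a ubiquitin ligase that form a complex, had values of -0.03 (SE 0.18) and 0.10 (SE 0.20). The last pair share exon bases on opposite strands, 9.40% of those of Parp9 and 8.0% of those of Dtx3l.

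The guanylate-binding proteins and immunity-related GTPases, which interferon gamma induces strongly, had a median log2 fold change of 0.30 over 7 tested genes, with 6 values above 0. None of the 7 passed the test. Irgm1, a regulator of the other GTPases and of autophagy, measured 14.2, 15.0 and 14.9 CPM in the untreated libraries and 18.7, 16.8 and 17.4 CPM in the irradiated ones. All irradiated libraries lay above all untreated ones, with means of 14.7 ± 0.424 and 17.6 ± 0.967 CPM (SD, n = 3 each). The log2 fold change was 0.26 (SE 0.13, 95% interval -0.00 to 0.53, edgeR adjusted p = 0.336). Irgm1 is at chromosome 11, 48861968 to 48871683.

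Iigp1, a GTPase that disrupts parasite vacuoles, measured 4.20, 2.71 and 3.87 CPM in the untreated libraries and 4.33, 5.05 and 4.23 CPM in the irradiated ones. The groups did not overlap, but UT1 and IR3 almost met, and the log2 fold change was 0.32 (SE 0.26, edgeR adjusted p = 0.609). Irgm1 and Iigp1 were the 2 tested members with every irradiated library above every untreated one, and Ifi35 the 1 tested member with the reverse, which the untested Oas2 also showed. Over all tested genes such a separation was found in 10.6% upward and 10.6% downward, shares above those of the members.

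Igtp, also called Irgm3, had the largest fold change above 0, at 2.63, 1.22 and 2.47 CPM in the untreated libraries and 3.26, 3.37 and 1.99 CPM in the irradiated ones. UT2 was far below the other untreated libraries, IR3 lay under UT1 and UT3, and the log2 fold change was 0.43 (SE 0.37, edgeR adjusted p = 0.632). Irgm2 measured 3.21, 2.71 and 2.53 CPM against 3.20, 4.21 and 3.11 CPM, a log2 fold change of 0.30 (SE 0.29, edgeR adjusted p = 0.682). Its gene model shares 4.39% of its exon bases with Igtp on the same strand, and reads there cannot be assigned to one of them.

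Gbp7 measured 6.99, 5.95 and 7.20 CPM in the untreated libraries and 8.52, 8.30 and 6.39 CPM in the irradiated ones. IR3 fell within the untreated range, and the log2 fold change was 0.20 (SE 0.19, edgeR adjusted p = 0.68). Gbp3 had a log2 fold change of 0.34 (SE 0.33). Gbp2, a GTPase that coats pathogen vacuoles, measured 5.84, 4.63 and 6.54 CPM against 6.66, 7.22 and 3.28 CPM. The irradiated libraries again held both extremes, and the log2 fold change was -0.00 (SE 0.26, edgeR adjusted p = 0.998). Genes of these families are similar in sequence, so reads shared between paralogs may not have been counted.

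The GTPase median changed in size with the libraries used. The summed level of the 7 genes was 39.0, 34.4 and 40.7 CPM in UT1, UT2 and UT3 and 48.1, 48.6 and 38.6 CPM in IR1, IR2 and IR3, so that UT2 was lowest and IR3 lay inside the untreated range. The median log2 fold change of the group stayed above 0 in all 15 other settings. It was lowest at 0.17 without UT2, and 0.09 without UT2 and IR2. IR2 had the fewest counts and the largest shares of reads not aligned or not uniquely aligned. Leaving out any other single library gave 0.23 to 0.37, with the highest value without IR3. Library totals alone gave 0.46, but that scaling also raised the all-gene median, to 0.14. Every gene of the group except Gbp2 had a value above 0 in each of the 15 settings. The T and B cell marker sums were higher in every irradiated library than in every untreated one. Of 13 T cell markers 11 were tested and 2 were called higher, Cd5 and Cd8b1. At an unadjusted edgeR p under 0.05, 9 of the 11 were higher and 0 lower. The summed level of the T cell markers was 2.01 to 17.8 CPM in the untreated libraries and 39.0 to 53.4 CPM in the irradiated ones. UT2 was the lowest, with Cd3g, Cd8a and Cd28 at 0 counts. Of 9 B cell markers 8 were tested, 0 were called, and 4 were higher and 0 lower at that unadjusted p. Their sums were 0.525 to 22.2 CPM against 43.1 to 44.1 CPM, and UT2 had Cd79a, Cd79b and Blk at 0 counts. Over all tested genes, 0.652% were called higher, and 7.51% were higher and 7.46% lower at that unadjusted p.

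Macrophage markers, 9 of 9 tested, with 0 called and 1 lower at an unadjusted p under 0.05, summed to 106 to 124 CPM in the untreated libraries and 98.7 to 107 CPM in the irradiated ones. The part of lymphocytes and macrophages in the GTPase values was not tested. In whole tissue, a change in the number of cells of a type and a change in RNA per cell cannot be told apart.

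**Figure D2:**
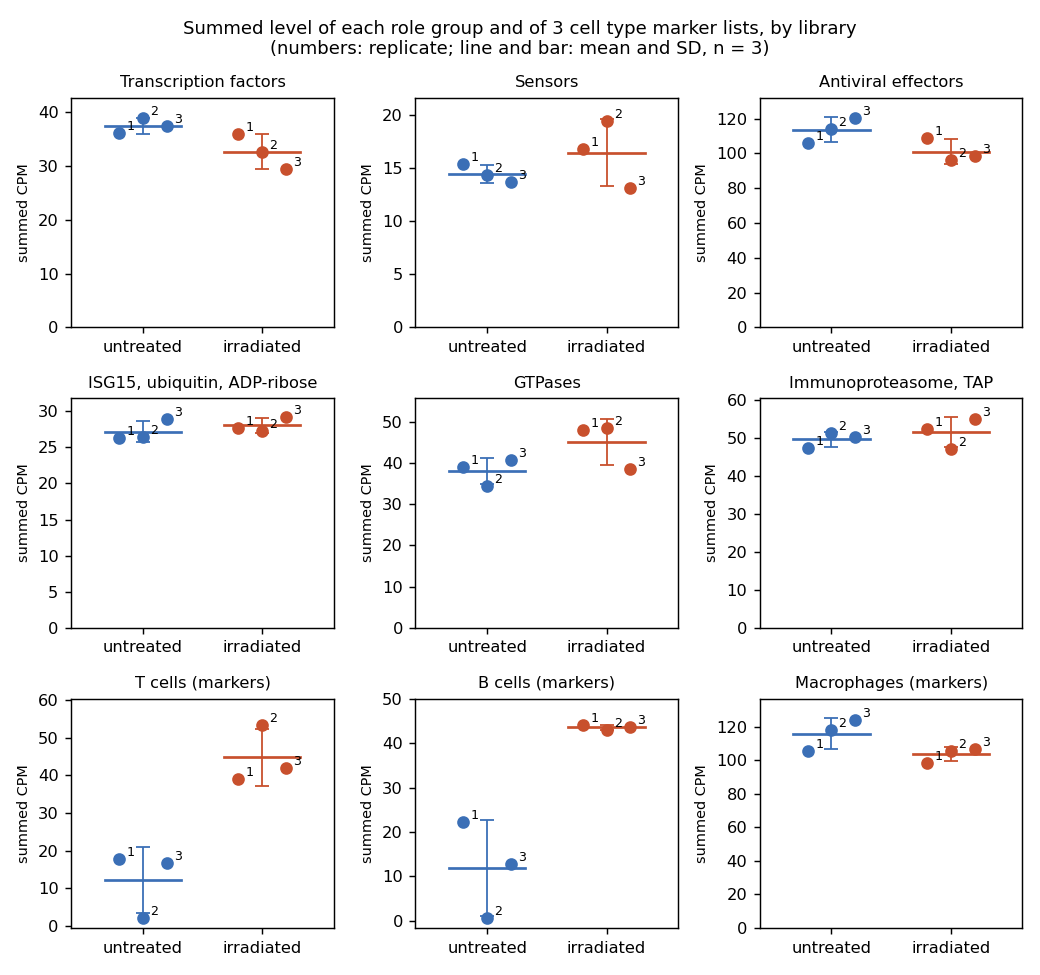
Summed level of the 6 role groups of interferon-stimulated genes and of 3 cell type marker lists, in CPM, for each untreated and irradiated library. Points carry the replicate number, and lines and bars are the mean and SD (n = 3). The T and B cell sums of all irradiated libraries lie above those of the untreated ones, whereas the points overlap in 5 of the 6 role groups. In the transcription factors IR1 lies just under UT1.

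The immunoproteasome and peptide transport genes lie side by side in the MHC region on chromosome 17 and had a median log2 fold change of 0.11, which was 0.06 without UT1 and 0.07 without UT3. Psmb8, a catalytic subunit that replaces its constitutive counterpart under interferon, measured 10.9, 11.5 and 11.2 CPM in the untreated libraries and 13.7, 11.1 and 13.4 CPM in the irradiated ones. IR2 lay among the untreated values, and the log2 fold change was 0.20 (SE 0.15, edgeR adjusted p = 0.587). Psmb9, another catalytic subunit, had a log2 fold change of 0.16 (SE 0.24). The peptide transporter subunits Tap1 and Tap2 had values of 0.05 (SE 0.13) and -0.10 (SE 0.16), whose intervals stayed within 1.5-fold both ways. Psmb8 and Tap2 lie opposite other gene models over 14.7% and 18.5% of their exon bases.

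Members with and without the promoter cores were set side by side. The 13 tested members with an ISRE core, whose sequences are in part those printed above, had a median log2 fold change of 0.20 with 8 values above 0. The 9 tested members with a GAS core had a median of 0.00 with 5 above 0. The 8 tested members with neither core had a median of -0.01 with 4 above 0. Of the 13 with an ISRE core, 6 were GTPases (Gbp2, Gbp3, Gbp7, Igtp, Irgm1 and Irgm2), and the difference between the classes was not tested.

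Single libraries ranked differently over the members. IR3 was the lowest of the 6 libraries for 10 of the 31 tested members and the highest for 1. IR2 was the highest for 9 and the lowest for 6, and IR1 the highest for 6 and the lowest for 1. The untreated libraries were the highest for 4 to 6 and the lowest for 3 to 6. IR2 had the fewest counts, and larger counting error can place a library at either end more often. The median log2 deviation of the members from the untreated mean was 0.05 in IR1, 0.06 in IR2 and -0.06 in IR3. In these values the irradiated libraries did not share one direction over the members.

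Upstream of the members, no interferon transcript was counted. All 21 interferon ligand genes in the list, Ifnb1 and Ifng among them, had 0 counts in all 6 libraries. A count of 0 allows up to 3 counts, which is 0.20 to 0.361 CPM depending on the library, and the interferon alpha genes are so alike that reads matching several of them may not have been counted. Of the 6 receptor genes, 0 were called by edgeR, DESeq2 or limma-voom, and 1 was higher at an unadjusted edgeR p under 0.05. Ifnar1 of the type I receptor measured 9.79, 12.3 and 12.3 CPM against 15.3, 15.4 and 12.5 CPM, groups that did not overlap, with a log2 fold change of 0.32 (SE 0.15, edgeR adjusted p = 0.325). Its partner Ifnar2 had a value of -0.09 (SE 0.13). Ifngr2 of the interferon gamma receptor had 0.31 (SE 0.15, edgeR adjusted p = 0.345) and its partner Ifngr1 0.04 (SE 0.14).

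Of 9 tested JAK-STAT genes and their inhibitors, 0 were called by edgeR, DESeq2 or limma-voom, and 1 was higher at an unadjusted edgeR p under 0.05. Of 17 tested genes of upstream sensing, 1 was called higher and 0 lower, and 3 were higher and 1 lower at an unadjusted p under 0.05. Over all tested genes, 0.652% were called higher, and 7.51% were higher and 7.46% lower at that unadjusted p.

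The called gene was Irf8, a transcription factor of myeloid cells, dendritic cells and B cells. It measured 4.28, 1.75 and 3.07 CPM in the untreated libraries and 9.32, 8.78 and 9.07 CPM in the irradiated ones, and every irradiated library lay above every untreated one. The log2 fold change was 1.57 (SE 0.25, edgeR adjusted p = 0.00321), and it was called in each of the 15 other settings. The T and B cell marker sums given above were higher in the irradiated libraries as well. The 4 genes listed as markers of plasmacytoid dendritic cells were Siglech, Ccr9, Ly6d and Spib. They summed to 2.71 to 7.34 CPM in the untreated libraries and 10.6 to 11.4 CPM in the irradiated ones, with 0 called. Which cells their counts came from was not tested. The 6 markers of dendritic cells, of which 3 were tested and 0 called, summed to 3.46 to 5.67 against 5.44 to 8.06 CPM, ranges that overlap. At an unadjusted edgeR p under 0.05, 1 of 4 tested plasmacytoid markers and 1 of 3 tested dendritic cell markers were higher. The share over all tested genes was 7.51%. The part of these cells in the result was not tested.

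A wider list of 52 other interferon-stimulated genes also had 0 calls among the 41 tested, by edgeR, DESeq2 or limma-voom. The median log2 fold change of the 41 was 0.10, with 24 values above 0 and 17 below. The summed level of the 52 was 791, 746 and 774 CPM in UT1 to UT3, against 744, 723 and 735 CPM in IR1 to IR3. Every irradiated sum thus lay below every untreated one, though abundant genes weigh most in a sum. At an unadjusted p under 0.05, however, 9 of the 41 (22.0%) were higher and 0 lower, against 7.51% and 7.46% of all tested genes. Without UT2 and IR2, a choice made after seeing the data, the count was 3 of 41 (7.32%), against 6.27% of all genes. It was 6 of 42 (14.3%, against 6.60%) without UT2 alone and 6 of 41 (14.6%, against 6.94%) without IR2 alone. Without UT3 it was 12 of 42 (28.6%, against 6.78%), and limma-voom gave 8 of 41 (19.5%, against 7.75%). The 9 genes of the first count were Cxcl9, Slfn2, Ifi205, Samd9l, Ifi47, Epsti1, Tgtp2, Gbp9 and Ciita, named here after their values were seen. Cxcl9, a chemokine that attracts T cells and is induced by interferon gamma, had the lowest p of the list, with counts of 5, 3 and 2 in UT1 to UT3, against 31, 9 and 14 in IR1 to IR3. Its log2 fold change was 2.46 (SE 0.64, edgeR adjusted p = 0.0503). The T cell marker sums differed in the same direction, and their part was not tested, nor was the difference between the wider list and the members.

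**Figure D3:**
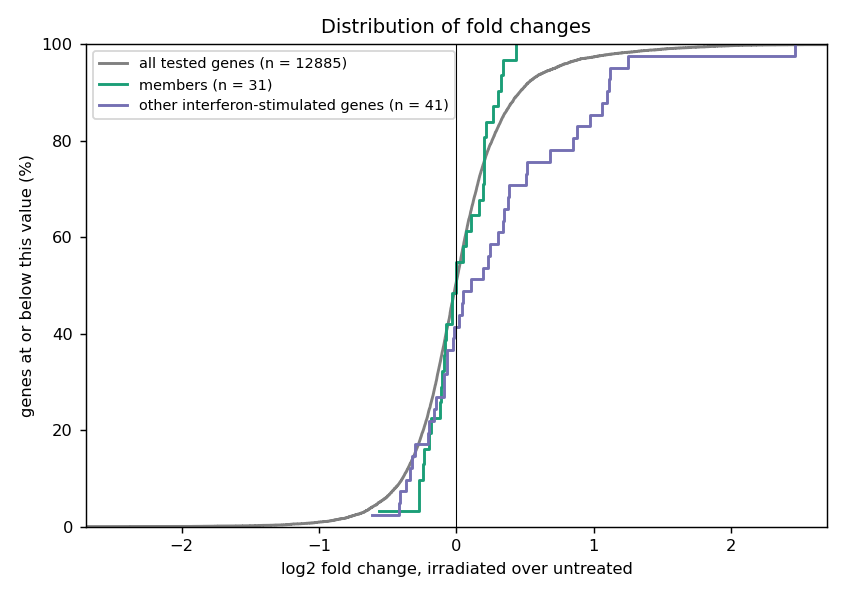
Share of genes, in percent, at or below each log2 fold change (irradiated over untreated), for all 12885 tested genes, the 31 tested members and 41 other interferon-stimulated genes. The line of the members is narrow and crosses the middle close to 0, and that of the other list reaches farther right, up to 2.46 for Cxcl9.

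Depth and the spread between libraries both limit these values. The libraries held 7108359 to 15036193 gene counts, with IR2 the lowest. Markers of parotid acinar cells, among them Bpifa2 and Amy1, summed to 361003 to 478101 CPM, which fits the labelled tissue. SEs of the log2 fold change ran from 0.12 to 0.56 over the tested members.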

How the data were processed

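The authors deposited 1 table of raw read counts per gene and library; the submitters' processing notes name bcl2fastq, HISAT2 and HTSeq and the build mm10, and the labels' protocols name a stranded total RNA kit. The versions and the strand setting of the counting are not given in the sources used here. Rows that name no gene held 32.4% to 40.7% of reads per library and were left out. Ensembl identifiers were matched to symbols, positions and exon lengths of GENCODE M21 (GRCm38), which paired 52489 of 52636 genes.

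Counts were tested with edgeR 4.0.16 (R 4.3.3): genes passing filterByExpr with a minimum count of 10, TMM factors, robust quasi-likelihood fit of irradiated against untreated, Benjamini-Hochberg adjustment over all tested genes, threshold 0.05. SEs come from the fitted weights and the posterior quasi-dispersion. The procedure was tested on simulated data. CPM uses TMM library sizes, and CPM per kilobase divides by exon length; the latter replaced the TPM-like scale first planned. Counting floors of 3 counts cover counting error only.

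The members, the role groups and the other lists were chosen with earlier results of these data known. Values in every library are given for members whose groups do not overlap, the 10 members with the smallest p, the highest and lowest per length, the member listed first in each role group, and the factors Stat2, Irf9, Irf7, Irf1 and Isg15. Of the other pathway genes, those past the threshold, the receptor genes Ifnar1, Ifnar2, Ifngr1 and Ifngr2, and Ifnb1 and Ifng are named; 1 further gene of that rule is not reported here. Alternatives were other scaling, DESeq2 1.42.0, limma-voom 3.58.1, fits without robust shrinkage, other count filters, a replicate block, and leaving out libraries.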

Additional observations from a re-analysis of the deposited data

How the results depend on the processing

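Members called higher and members called lower stayed at 0 in all 15 other settings, with 0 to 2 members at an unadjusted p under 0.05 and a lowest adjusted p between 0.174 and 0.468. Their median log2 fold change ran from -0.07 to 0.15, and its highest value came with scaling by library totals, which put the all-gene median at 0.14. Counts over all genes, 84 higher and 45 lower, moved more: 260 and 22 with library totals alone, 121 and 70 with DESeq2, 20 and 5 with limma-voom, 21 and 5 without robust shrinkage, 279 and 239 with no count filter, and 40 and 12 without UT2 and IR2, a choice made after seeing the data. Leaving out 1 library gave 31 to 83 higher and 14 to 72 lower. The cause was not tested. Other interferon pathway genes called higher, 1 at first, were 3 with library totals alone (Ptpn6 and Cxcl9 added) and 4 with no count filter (Ifi205 added as well). There was no clear sign that equal replicate numbers pair the samples. The correlations of same-numbered deviations from the group means were 0.0373, -0.127 and -0.105. UT1 correlated best with IR1, but UT2 and UT3 correlated best with other numbers (0.151 and 0.111). Deviations from means of 3 libraries are not independent, so these values cannot exclude a pairing. The replicate block gave 39 higher and 14 lower over all genes and 0 members. The 9 untested members fell under the count filter, with 1 to 22 counts per library.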

Other observations

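Several further values were seen. IR2, 1 of the 3 irradiated libraries of the main comparison, had 0.00153% of its reads in the row for low alignment quality. The other 5 libraries had 1.85% to 2.14% there. In IR2 10% of reads were not aligned, where the others had 3.75% to 4.33%. Its share of reads not uniquely aligned was 18.4%, where the others had 13.3% to 16.0%. What this did to the comparison was not tested beyond leaving IR2 out. Trex1, the exonuclease that clears cytosolic DNA, is listed at 0 in all 6 libraries, and 100% of its exon bases lie within Atrip on the same strand. Tmem173, which encodes the adaptor Sting of cytosolic DNA sensing, measured 3.79, 2.01 and 2.33 CPM in the untreated libraries and 4.33, 5.53 and 4.66 CPM in the irradiated ones (log2 fold change 0.83, SE 0.29, edgeR adjusted p = 0.167). Irf3, the factor that Sting activates, measured 23.1, 25.7 and 24.2 CPM against 20.6, 16.2 and 20.8 CPM (log2 fold change -0.33, SE 0.12, edgeR adjusted p = 0.194). Neither passed the test, and both were named after their values were seen. Ptpn6, a phosphatase that dampens JAK-STAT signalling, measured 9.05, 7.61 and 9.61 CPM against 13.1, 14.6 and 13.2 CPM (log2 fold change 0.63, SE 0.15, edgeR adjusted p = 0.0528).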
